A study of Mus musculus with 8 samples.

Results

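The costimulatory receptors and ligands of the tumour necrosis factor (TNF) family were described as a set of 10 genes, taken by name from the 45706 genes of the deposited tables. There were 6 receptor genes (Tnfrsf9, Tnfrsf18, Tnfrsf4, Tnfrsf1b, Cd27 and Cd40) and 4 ligand genes (Tnfsf9, Tnfsf14, Tnfsf4 and Cd70). Their RNA was measured in natural killer (NK) cells, in 4 libraries whose titles place the cells in the tumour (tuNK) and 4 whose titles place them in the spleen (spNK), by sequencing of polyadenylated RNA from cells sorted in bulk. All of the cells came from BALB/c mice, given under the skin a tumour of CT26_β2m-/-. CT26 is a mouse colorectal carcinoma line, and the loss of β2-microglobulin keeps MHC class I from the surface of the tumour cells, which NK cells are known to respond to. The tissue tags name the other tissue in all 8 samples (tumour for those titled spNK, spleen for those titled tuNK). The columns of the deposited tables are named SPNK and TUNK, like the titles. Group names here therefore follow the titles, and any direction is reversed if the tags are right. The labels give no age, no number of mice and no sort markers, and the p-values therefore measure only the spread between these samples.

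Receptors of this family sit on lymphocytes as trimers, bind trimeric ligands on neighbouring cells, and recruit TRAF adaptor proteins that switch on NF-kB. In T and NK cells the signal adds to that of an activating receptor and supports division, survival and cytokine release. Several of the receptors (4-1BB, OX40, GITR) appear or increase on lymphocytes after activation, whereas CD27 is present on resting lymphocytes and, in mouse NK cells, marks the less mature stages. Antibodies that stimulate 4-1BB, OX40, GITR and CD27 have been studied as cancer treatments.

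Library totals ran from 38745733 to 45404059 estimated counts in tuNK and from 40560781 to 53886933 in spNK. Levels are given in CPM, counts scaled to library size after TMM normalisation, and log2 fold changes as tuNK minus spNK ± standard error. The 14 NK cell markers, Ncr1 and Eomes among them, were detected in both groups, with summed levels of 4290 to 6056 CPM in tuNK and 13630 to 19330 CPM in spNK, and all 14 fell. Markers of fibroblasts and mesenchymal tumour cells summed to 3089 to 4753 CPM in tuNK and 13.8 to 55.5 CPM in spNK, and all 11 rose. Epithelial markers summed to 47.7 to 68.8 CPM in tuNK and 1.23 to 10.1 CPM in spNK. Of 6 tested epithelial markers 4 rose, while Cdh1 (log2 fold change -1.23) and Epcam (1.38) were not called. The tuNK libraries also held less RNA of leukocyte genes. Of 32 genes expressed across leukocytes, 31 fell and 0 rose, with a median log2 fold change of -1.64. Each tested gene of the set, each further gene list and some further genes are therefore compared a second time, with the libraries scaled to those 32 genes (leukocyte-scaled). This scaling moved the median of all genes to 1.68, against 0.02 under TMM. In bulk libraries fewer cells of a type and less RNA per cell cannot be told apart.

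By the edgeR quasi-likelihood test across all genes, at an adjusted p below 0.05, 2 of the 10 genes rose in tuNK (Tnfrsf9 and Tnfsf9, a receptor and its own ligand), and 5 fell (Tnfrsf1b, Cd27, Tnfrsf4, Cd40 and Tnfsf14). Neither Tnfrsf18 nor Tnfsf4 was called, and Cd70 had too few counts to be tested. Among all 14006 genes tested, 69.6% were called, 35.6% higher and 34% lower, so the share of the set that was called, 7 of the 9 tested, is near that of all genes. The CPM of the groups did not overlap for 7 of the 10 genes, beside 67.1% of all genes tested. Leukocyte-scaled, 5 of the 10 genes were higher (Tnfrsf9, Tnfsf9, Tnfsf4, Tnfrsf18 and Tnfrsf1b) and 3 lower (Cd40, Tnfrsf4 and Tnfsf14), beside 77.2% of all genes higher and 6.21% lower (83.4% in either direction). Without the spNK library with the most B cell markers (spNK 3) and the tuNK library with the most mesenchymal markers (tuNK 1), 2 genes rose and 5 fell under TMM scaling.

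**Figure D1:**
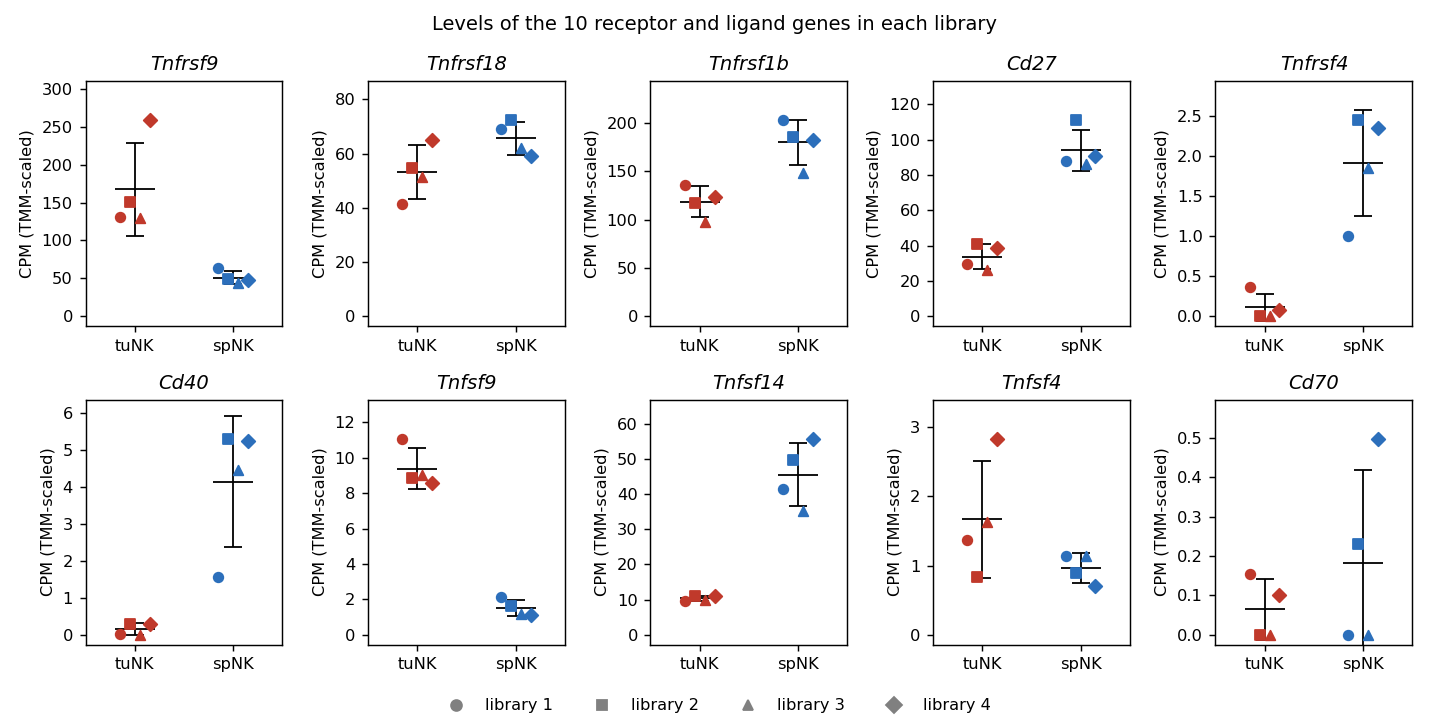
CPM after TMM scaling (linear axes) of the 6 receptor genes and 4 ligand genes in the 4 tuNK and 4 spNK libraries, with 1 symbol per library, and the mean and SD as a line with bars. Tnfrsf9 and Tnfsf9 lie higher in every tuNK library than in any spNK library, and Tnfrsf1b, Cd27, Tnfrsf4, Cd40 and Tnfsf14 lie lower in tuNK; leukocyte-scaled, Tnfrsf1b was higher and Cd27 was not called.

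Tnfrsf9 encodes 4-1BB (CD137), a receptor that lymphocytes gain on activation and that recruits TRAF1 and TRAF2. It measured 132, 151, 129 and 259 CPM in tuNK 1 to 4, against 64.2, 48.5, 43.6 and 47.9 CPM in spNK 1 to 4. The lowest tuNK library was thus above the highest spNK library, and tuNK 4 stood well above the other tuNK libraries. The mean was 3.29-fold higher in tuNK (168 ± 61.5 CPM, against 51.0 ± 9.06 CPM in spNK, SD, n = 4 each), a log2 fold change of 1.72 ± 0.23 (edgeR adjusted p = 1.19e-04). Without tuNK 4 the log2 fold change was 1.42, the lowest value when each library was left out in turn, and the highest was 1.83. Leukocyte-scaled, Tnfrsf9 was higher by 3.39 ± 0.21 (edgeR adjusted p = 1.05e-08), above the median of 1.68 for all genes. Mesenchymal markers were higher in the same libraries (3089 to 4753 CPM in tuNK, 13.8 to 55.5 CPM in spNK). The part of tumour or stromal cells in the rise of Tnfrsf9 was not tested. The gene lies on chromosome 4 (ENSMUSG00000028965, 150914562 to 150946102, plus strand, GRCm38), and RefSeq gives it 2 starts in the table used, which gene-level counts do not separate.

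The 250 bases before a RefSeq start of Tnfrsf9 are shown because the gene rose, with those of Tnfsf14, the ligand gene that fell, for comparison. They were searched on both strands for the NF-kB consensus, for AP-1 (TGANTCA), for the CCAAT box (CCAAT) and for the TATA box (TATAAA), and capitals mark the matches. The first Tnfrsf9 window is chr4:150919905-150920154 (plus strand) and the Tnfsf14 window is chr17:57194182-57194431 (minus strand), on the GRCm38.p6 build of RefSeq. A stretch of 30 bases, chr4:150927946-150927975, comes from before a second, downstream start of Tnfrsf9, in a window that overlaps a GENCODE exon.
Tnfrsf9, first start: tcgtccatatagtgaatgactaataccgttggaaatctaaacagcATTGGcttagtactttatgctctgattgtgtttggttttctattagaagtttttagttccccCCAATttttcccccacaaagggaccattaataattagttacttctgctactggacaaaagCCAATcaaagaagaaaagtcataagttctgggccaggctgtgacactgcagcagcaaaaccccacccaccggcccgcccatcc
Tnfrsf9, second start: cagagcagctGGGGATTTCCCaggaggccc
Tnfsf14: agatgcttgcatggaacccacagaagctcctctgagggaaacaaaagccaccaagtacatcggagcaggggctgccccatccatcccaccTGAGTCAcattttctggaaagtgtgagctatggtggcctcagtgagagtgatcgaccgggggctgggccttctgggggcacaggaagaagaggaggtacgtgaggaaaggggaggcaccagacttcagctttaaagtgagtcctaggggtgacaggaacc

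The capitals in the first Tnfrsf9 window are 3 CCAAT boxes, of which 1 is on the opposite strand, and this window held no match to the other motifs. The capitals in the stretch before the second start are overlapping matches to the NF-kB consensus on both strands, between -43 and -33 from the start, and an AP-1 match lies further on at -15 to -9. In the Tnfsf14 window the capitals are an AP-1 match at -160 to -154. Of 32851 RefSeq windows of 250 bases, 3.9% held the NF-kB consensus, 6.75% AP-1, 33.85% a CCAAT box and 12.37% a TATA box. Of the 10 genes 6 had a window in the table, and those of Tnfrsf18, Tnfrsf4, Tnfrsf1b and Cd27 held no match to these 4 motifs. A match is only a run of letters, and binding was not measured here.

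Tnfrsf18 encodes GITR, a receptor of regulatory and activated T cells that NK cells also carry. The tuNK libraries had 41.3, 54.8, 51.4 and 65.2 CPM, and the spNK libraries 68.9, 72.3, 62.0 and 59.1 CPM. The groups overlapped, since tuNK 4 was above spNK 3 and spNK 4. Its log2 fold change was -0.30 ± 0.13 (edgeR adjusted p = 0.0626), not called. This verdict depended on the processing, because the gene was called lower without tuNK 4 (-0.42, edgeR adjusted p = 0.0137), with scaling by library size alone (-0.48) and on log2(TPM + 1) with limma (-0.49). Leukocyte-scaled it turned higher, by 1.35 ± 0.17 (edgeR adjusted p = 4.93e-06), which is below the median of all genes under that scaling. The gene (ENSMUSG00000041954, chromosome 4, 156026164 to 156028895) overlaps Gm16008, annotated on the opposite strand, which had 0 to 13 counts per tuNK library and 0 to 3 per spNK library.

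Tnfrsf1b encodes TNF receptor 2, the form of the TNF receptor found mainly on leukocytes and endothelium, which lacks a death domain. There were 136, 117, 98.1 and 124 CPM in tuNK 1 to 4 and 203, 186, 148 and 183 CPM in spNK 1 to 4. Every tuNK library was below every spNK library, although the gap between tuNK 1 and spNK 3 was small. Tnfrsf1b fell by 0.60 ± 0.12 on the log2 scale (119 ± 15.8 CPM in tuNK, 180 ± 23.0 CPM in spNK, edgeR adjusted p = 0.00112). When leukocyte-scaled it was higher by 1.09 ± 0.17 (edgeR adjusted p = 3.56e-05), below the median of 1.68 for all genes. The gene (ENSMUSG00000028599) is on chromosome 4 at 145213463 to 145246870.

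Cd27 encodes the receptor of CD70. Levels were 29.5, 40.7, 25.9 and 38.8 CPM in tuNK 1 to 4, against 88.1, 111, 86.3 and 90.5 CPM in spNK 1 to 4. The groups lay far apart, with the highest tuNK library below the lowest spNK library. The mean was 2.79-fold lower in tuNK (33.7 ± 7.11 CPM, against 94.0 ± 11.5 CPM in spNK), and the log2 fold change was -1.48 ± 0.15 (edgeR adjusted p = 8.53e-06). This was about the size of the fall of the leukocyte genes (median -1.64), and leukocyte-scaled the difference was 0.16 ± 0.18 (edgeR adjusted p = 0.416), not called. Scaled instead to the 14 NK markers, an alternative chosen after the data had been seen, Cd27 was called higher, by 0.62 (edgeR adjusted p = 0.00249). The gene (ENSMUSG00000030336) is on chromosome 6 at 125232622 to 125237010.

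Tnfrsf4 and Cd40 were scarce and were nearly lost from tuNK. Tnfrsf4, which encodes OX40, a receptor of activated T cells, had 14, 0, 0 and 3 counts in tuNK 1 to 4 and 43, 138, 91 and 104 counts in spNK 1 to 4. In CPM these were 0.362, 0, 0 and 0.0766 in tuNK, against 1.00, 2.45, 1.86 and 2.36 in spNK, so the highest tuNK library lay below the lowest spNK library. A count of 0 allows up to 3 counts, or 0.0699 CPM in tuNK 2 and 0.0763 CPM in tuNK 3, a limit that covers counting error only. The log2 fold change was -4.11 ± 1.03 (edgeR adjusted p = 0.0044), but -6.13 without tuNK 1, which held most of its tuNK counts. Leukocyte-scaled it was -2.43 ± 1.07 (edgeR adjusted p = 0.0482), and the call was lost without any single library other than tuNK 1 (edgeR adjusted p up to 0.117) and with scaling to NK markers (-1.96, edgeR adjusted p = 0.101). T cell markers were also lower under TMM, at 14.1 to 24.5 CPM summed in tuNK and 52.1 to 63.2 CPM in spNK. Of these, 5 of 5 tested were lower, and Cd3e and Cd8b1 were at 0 in every tuNK library. Leukocyte-scaled, Cd4 (-1.92) and Cd8a (-3.97) were lower, Cd3d (-0.62) and Trac (-0.27) were not called, and Cd3g (1.06) was higher. Markers of regulatory T cells stayed low in both groups, with summed levels of 0.127 to 1.11 CPM in tuNK and 0 to 0.745 CPM in spNK. The part of T cells in the difference was not tested.

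Cd40 encodes the receptor by which B cells, dendritic cells and macrophages receive help from T cells. It had 1, 13, 0 and 11 counts in tuNK 1 to 4 (0.0259, 0.303, 0 and 0.281 CPM), against 67, 299, 219 and 232 counts in spNK 1 to 4 (1.56, 5.31, 4.47 and 5.26 CPM). Every tuNK library was far below the lowest spNK library, spNK 1. The mean was 27.2-fold lower in tuNK, with a log2 fold change of -4.73 ± 0.86 (edgeR adjusted p = 6.2e-04), and -5.31 without tuNK 2. Leukocyte-scaled it stayed lower, at -3.23 ± 0.88 (edgeR adjusted p = 0.00385). B cell markers were lower in tuNK as well, at summed levels of 0.842 to 2.045 CPM, against 18.8 to 41.5 CPM in spNK, with 8 of 9 tested markers lower and Ms4a1, Cr2, Fcer2a and Blk at 0 in every tuNK library. Dendritic cell markers summed to 44.5 to 61.3 CPM in tuNK and 182 to 440 CPM in spNK, mostly from H2-Aa and H2-Ab1. Under TMM 7 of 7 tested markers were lower. Leukocyte-scaled, Flt3 (-1.41), Clec9a (-2.84), H2-Aa (-1.55) and H2-Ab1 (-0.84) stayed lower, while Zbtb46 (0.45), Ccr7 (0.077) and Xcr1 (-1.12) were not called. Summed macrophage and monocyte markers overlapped between the groups, at 57.2 to 72.3 CPM in tuNK and 38.1 to 257 CPM in spNK. Of 8 tested markers 2 were higher and 3 lower. Most of the tuNK sum was Cd14 (51.3 to 65.8 CPM, against 0 to 0.391 CPM in spNK). Most of the spNK sum was Lyz2 (36.0 to 243 CPM, against 1.06 to 4.96 CPM in tuNK). The part of these cells in the Cd40 difference was not tested.

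Among the ligands, Tnfsf9 encodes 4-1BB ligand, which antigen-presenting cells and some tumour cells carry. It was at 11.1, 8.88, 9.05 and 8.55 CPM in tuNK 1 to 4, against 2.12, 1.65, 1.14 and 1.13 CPM in spNK 1 to 4. The tuNK libraries were close to one another and all above the spNK libraries. The mean was 6.21-fold higher in tuNK (9.39 ± 1.15 CPM, against 1.51 ± 0.471 CPM in spNK), a log2 fold change of 2.63 ± 0.27 (edgeR adjusted p = 7.41e-06), and 4.36 ± 0.28 leukocyte-scaled (edgeR adjusted p = 1.32e-08). Mesenchymal markers (3089 to 4753 CPM in tuNK, 13.8 to 55.5 CPM in spNK) were higher in the same libraries. So was the sum of epithelial markers (47.7 to 68.8 CPM in tuNK, 1.23 to 10.1 CPM in spNK), with 4 of 6 tested called higher. Cdh1 (-1.23) and Epcam (1.38) were not called. The part of tumour or stromal cells in the rise of Tnfsf9 was not tested. The start of Tnfsf9 (ENSMUSG00000035678, chromosome 17, 57105325 to 57107757) overlaps Gm11110, a long non-coding RNA gene on the opposite strand. Gm11110 had 137, 151, 125 and 244 counts in tuNK, against 29, 86, 60 and 98 in spNK, and rose by 1.54 (edgeR adjusted p = 0.00591). The strand setting of the counting is not given, so reads from these 2 genes may not have been told apart.

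Tnfsf14 encodes LIGHT, a ligand of activated lymphocytes that binds HVEM and the lymphotoxin β receptor. Values were 9.50, 11.1, 10.01 and 10.95 CPM in tuNK 1 to 4, against 41.3, 49.8, 35.3 and 55.8 CPM in spNK 1 to 4. All tuNK libraries were alike and well below all spNK libraries. The mean was 4.39-fold lower in tuNK (10.4 ± 0.762 CPM, against 45.6 ± 9.03 CPM in spNK), a log2 fold change of -2.13 ± 0.15 (edgeR adjusted p = 5.73e-07). Leukocyte-scaled it was lower, at -0.48 ± 0.21 (edgeR adjusted p = 0.0445), a call that was lost on leaving out tuNK 1, tuNK 2, tuNK 3, tuNK 4, spNK 2 or spNK 4 (edgeR adjusted p up to 0.176). Scaled to the NK markers the difference was -0.0084 (edgeR adjusted p = 0.966). A fall of Tnfsf14 relative to leukocyte or NK marker RNA was thus not called in most of these fits.

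Tnfsf4 encodes OX40 ligand, a product of activated antigen-presenting cells and endothelium. It stood at 1.37, 0.839, 1.63 and 2.83 CPM in tuNK 1 to 4 and at 1.14, 0.888, 1.14 and 0.702 CPM in spNK 1 to 4. The groups overlapped, and the highest value came from tuNK 4, the library that was also highest in Tnfrsf9. Its log2 fold change was 0.78 ± 0.47 (edgeR adjusted p = 0.16), not called, and 0.39 without tuNK 4, whereas leukocyte-scaled it was higher by 2.44 ± 0.53 (edgeR adjusted p = 6.7e-04). Cd70, the ligand of CD27, had 6, 0, 0 and 4 counts in tuNK 1 to 4 and 0, 13, 0 and 22 counts in spNK 1 to 4. It was at or near the limit of detection in both groups and did not pass the filter on low counts, so no test was made. The 3 ligand genes Tnfsf9, Cd70 and Tnfsf14 lie within 88853 bases on chromosome 17 (57105325 to 57194177), with no other protein-coding gene annotated between them. In this cluster Tnfsf9 rose, Tnfsf14 fell and Cd70 was barely detected. Tnfrsf4 and Tnfrsf18 lie within 15053 bases on chromosome 4, and of this pair Tnfrsf4 fell while Tnfrsf18 was not called.

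**Figure D2:**
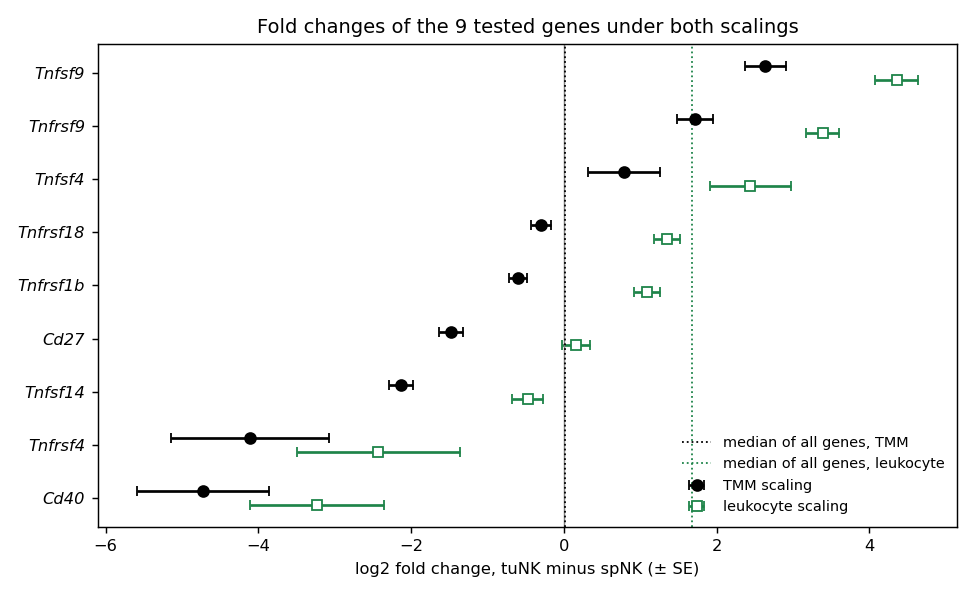
Log2 fold change, tuNK minus spNK, with its standard error for the 9 genes tested, under TMM scaling (filled circles) and with libraries scaled to 32 leukocyte genes (open squares). Dotted lines mark the median of all 14006 genes, 0.02 under TMM and 1.68 leukocyte-scaled. Tnfsf9, Tnfrsf9 and Tnfsf4 lie to the right of it under both, though Tnfsf4 was not called under TMM. Tnfrsf18, Tnfrsf1b and Cd27 are below 0 under TMM and above 0 leukocyte-scaled.

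The makeup of the family within a library does not depend on how libraries are scaled to each other, and it was compared per length, in TPM, in which counts are divided by transcript length and scaled to a fixed total. In tuNK, Tnfrsf9 led the set at 119 ± 41.4 TPM, followed by Tnfrsf18 at 53.97 ± 8.02, Tnfrsf1b at 31.8 ± 8.20 and Cd27 at 25.6 ± 5.64 TPM. In spNK, Cd27 came first at 84.3 ± 8.97 TPM, then Tnfrsf18 at 76.2 ± 8.91, Tnfrsf1b at 57.3 ± 7.17 and Tnfrsf9 at 40.6 ± 3.71 TPM. The order of the main receptors thus differed, with Tnfrsf9 first of 4 in tuNK and last of 4 in spNK, although the ranges of Tnfrsf1b and Cd27 overlapped in tuNK and those of Cd27 and Tnfrsf18 overlapped in spNK. In tuNK the scarcer genes were Tnfsf9 (8.63 ± 1.90 TPM), Tnfsf14 (5.85 ± 0.414), Tnfsf4 (0.937 ± 0.433), and then Cd40, Tnfrsf4 and Cd70, whose ranges overlapped near 0. In spNK, Tnfsf14 (30.5 ± 6.21 TPM) overlapped with Tnfrsf9 above it, and Cd40 (4.33 ± 2.40), Tnfrsf4 (2.56 ± 0.875) and Tnfsf9 (1.64 ± 0.530) overlapped in turn, with Tnfsf4 and Cd70 lowest.

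The 6 receptor genes summed to 231 ± 52.3 TPM in tuNK and 265 ± 25.5 TPM in spNK, ranges that overlapped. Tnfrsf9 made up 46.2, 47.8, 49.8 and 59.4% of that sum in tuNK 1 to 4, against 16.2, 14.4, 15.5 and 15.1% in spNK 1 to 4. Cd27 made up 11.2 ± 1.99% in tuNK and 31.8 ± 1.44% in spNK, while Tnfrsf18 differed less, at 23.7 ± 2.81% in tuNK and 28.7 ± 1.12% in spNK. The ratio of Tnfrsf9 to Cd27 transcripts was 4.70 ± 1.30 in tuNK and 0.483 ± 0.0459 in spNK. The 4 ligand genes summed to 15.5 ± 2.13 TPM in tuNK and 33.1 ± 6.42 TPM in spNK. Tnfsf9 made up 61.4, 54.5, 55.6 and 49.5% of the ligand sum in tuNK 1 to 4, against 7.46, 4.93, 4.82 and 3.07% in spNK 1 to 4, and Tnfsf14 most of the remainder. These shares are a description, as the set was put together with earlier results of these data in view. They cover the RNA of all cells in a library, and the part of tumour or stromal cells in them was not tested.

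**Figure D3:**
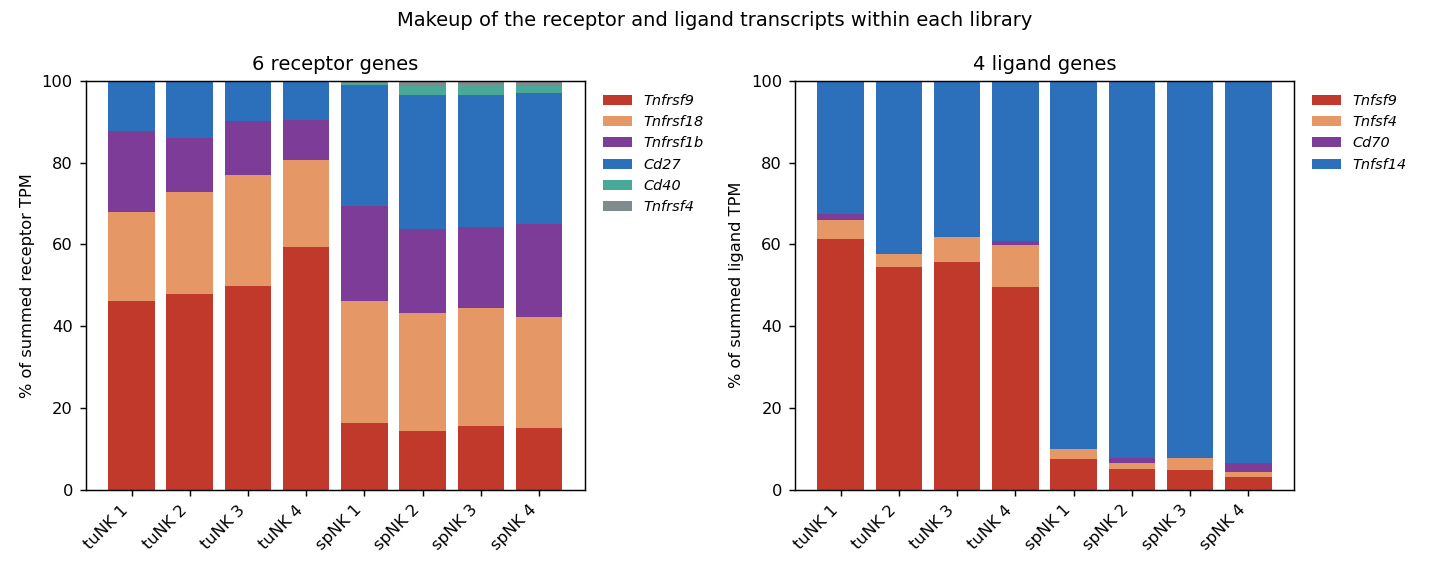
Share of each gene in the summed TPM of the 6 receptor genes (left) and of the 4 ligand genes (right), as stacked bars for tuNK 1 to 4 and spNK 1 to 4. Tnfrsf9 holds 46.2 to 59.4% of receptor transcripts in tuNK and 14.4 to 16.2% in spNK, and Tnfsf9 holds 49.5 to 61.4% of ligand transcripts in tuNK and 3.07 to 7.46% in spNK.

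The partners of the 10 genes were read from the same fit. Tnfrsf9 and Tnfsf9 rose together, with more receptor than ligand in each library, at a ratio of 14.6 ± 6.95 in tuNK and 26.1 ± 5.56 in spNK by TPM. No counts were found in any of the 8 libraries for Tnfsf18, the ligand of GITR, or for Cd40lg, the ligand of CD40. Such zeros allow up to 0.0777 CPM in the shallowest library. For TNF receptor 2 the ligand genes were low and not called, with Tnf at 1.67 ± 0.382 CPM in tuNK and 2.38 ± 0.614 in spNK, and Lta at 1.02 ± 0.363 CPM in tuNK and 1.13 ± 0.751 in spNK. The direction of Lta changed with the setting. Both were higher leukocyte-scaled (1.18 and 1.56 on the log2 scale), though below the median of 1.68 for all genes.

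Both receptors of LIGHT differed between the groups, in opposite directions. Ltbr, which encodes the lymphotoxin β receptor of stromal, epithelial and myeloid cells, measured 61.1, 57.2, 61.9 and 50.5 CPM in tuNK, against 1.44, 2.20, 6.27 and 3.35 CPM in spNK. It rose by 4.12 ± 0.40 on the log2 scale (edgeR adjusted p = 1.83e-05), and the mesenchymal markers rose in the same libraries, with their part in this not tested. Tnfrsf14, which encodes HVEM, a receptor of lymphocytes, fell by 1.11 ± 0.36 (edgeR adjusted p = 0.0171), at 1.80 ± 0.672 CPM in tuNK and 3.87 ± 1.17 CPM in spNK. That call was lost without spNK 3 (-0.89, edgeR adjusted p = 0.0519), and the direction was opposite when leukocyte-scaled (0.51, edgeR adjusted p = 0.286). The other ligands of HVEM, outside the TNF family, also fell. Btla fell by 3.28 (0.429 ± 0.184 CPM in tuNK, 4.18 ± 1.65 in spNK), and by 1.67 leukocyte-scaled, and Cd160 fell by 1.48 (17.4 ± 3.21 CPM in tuNK, 48.6 ± 2.42 in spNK), but was at 0.16 and not called leukocyte-scaled.

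Of 22 other receptor genes of the family in the tables, 18 were tested, 7 rose and 8 fell, beside 35.6% of all genes higher and 34% lower. Their median log2 fold change was -0.23, beside 0.02 for all genes. The 3 with the smallest p rose by a large factor. Tnfrsf12a, which encodes the TWEAK receptor of injured and tumour tissue, was at 278 ± 22.4 CPM in tuNK and 2.37 ± 0.883 CPM in spNK, a log2 fold change of 6.87 ± 0.25 (edgeR adjusted p = 1.61e-08). The decoy receptor genes Tnfrsf23 and Tnfrsf22 rose by 6.17 ± 0.30 and 3.35 ± 0.17, though they are close relatives and reads could be exchanged between them. These rises stood beside those of the mesenchymal markers (3089 to 4753 CPM in tuNK, 13.8 to 55.5 CPM in spNK), whose part was not tested. Relt, a receptor of haematopoietic cells, fell by 1.35 ± 0.14 and was not called leukocyte-scaled (0.32). Leukocyte-scaled, 9 of the 18 were higher and 2 lower, beside 77.2% and 6.21% of all genes, with a median of 1.37, and the lower ones were Tnfrsf13b and Tnfrsf13c, receptors of B cells for BAFF (-2.12 and -1.52, named after their values were seen).

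Of 14 other ligand genes 9 were tested, 1 rose and 4 fell (35.6% and 34% of all genes), with a median of -0.51. The gene that rose was Tnfsf8, which encodes CD30 ligand, at 3.82 ± 0.573 CPM in tuNK and 1.15 ± 0.446 CPM in spNK (log2 fold change 1.74 ± 0.36, edgeR adjusted p = 0.0012). Ltb, which encodes lymphotoxin β of lymphocytes, fell by 1.26 ± 0.14 (181 ± 33.8 CPM in tuNK, 432 ± 52.1 CPM in spNK), Fasl, the death ligand of cytotoxic cells, by 1.54 ± 0.17 and Tnfsf12, which encodes TWEAK, by 1.05 ± 0.13. The remaining gene that fell was Tnfsf10, which encodes TRAIL (-0.78 ± 0.24, named after its values were seen). None of these 4 was lower when leukocyte-scaled (Ltb 0.39, Fasl 0.13, Tnfsf12 0.64 and Tnfsf10 0.88), where 7 of the 9 were higher and 0 lower, near the 77.2% of all genes that were higher.

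Below the receptors, TRAF adaptors and enzymes carry the signal. Of 27 such genes 2 rose, 18 fell and 7 were not called, beside 35.6% of all genes higher and 34% lower, with a median of -0.46. Leukocyte-scaled, 24 were higher and 1 lower, beside 77.2% and 6.21% of all genes, with a median of 1.19 against 1.68 for all genes. The TRAF genes themselves differed. Traf6 fell by 2.05 ± 0.14 (13.5 ± 2.02 CPM in tuNK, 55.9 ± 7.54 CPM in spNK) and was still lower leukocyte-scaled (-0.38). Traf1 and Traf2, the adaptors of 4-1BB, had log2 fold changes of -0.01 and -0.06 under TMM scaling. Traf1 was at 66.6 ± 7.25 CPM in tuNK and 67.3 ± 6.99 in spNK, and Traf2 at 52.4 ± 3.83 in tuNK and 54.7 ± 4.91 in spNK. Birc2, a ubiquitin ligase that binds TRAF2, fell by 1.46 ± 0.12, Tab2, an adaptor of the kinase TAK1, by 1.17 ± 0.10 and Otulin, which removes linear ubiquitin, by 0.98 ± 0.10, and all 3 turned positive leukocyte-scaled (0.21, not called, 0.50 and 0.67). The 2 that rose, named after their values were seen with Traf1 and Traf2, were Tnfaip3 and Map3k14. Tnfaip3 encodes A20, an NF-kB-induced inhibitor of the pathway, and was at 272, 170, 65.1 and 100 CPM in tuNK 1 to 4, against 45.4, 50.3, 32.6 and 38.3 CPM in spNK 1 to 4 (log2 fold change 1.87 ± 0.41, edgeR adjusted p = 0.00347). Map3k14, which encodes the NF-kB-inducing kinase, rose by 0.54 ± 0.21 (edgeR adjusted p = 0.042), a call lost without tuNK 1, tuNK 2, tuNK 4, spNK 1, spNK 3 or spNK 4 and with scaling by library size alone.

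NF-kB subunits and inhibitors moved both ways, with 3 of 11 genes higher, 2 lower and 6 not called, beside 35.6% of all genes higher and 34% lower, and a median of -0.04. Leukocyte-scaled, 10 were higher and 0 lower, beside 77.2% and 6.21% of all genes. Nfkb2, the p100 subunit of the alternative pathway, measured 478, 368, 379 and 416 CPM in tuNK 1 to 4, against 59.5, 66.2, 55.2 and 64.7 CPM in spNK 1 to 4. Each tuNK library was far above each spNK library, with a log2 fold change of 2.74 ± 0.11 (edgeR adjusted p = 1.25e-08). Nfkb1, the p105 subunit of the classical pathway, fell by 0.55 ± 0.11. Leukocyte-scaled it was higher by 1.11, below the median of 1.68 for all genes. The inhibitor-like gene Nfkbiz rose by 3.30 ± 0.67, with tuNK libraries spread from 8.997 to 66.5 CPM and a log2 fold change of 2.57 without tuNK 1. Nfkbie, an inhibitor of NF-kB, rose by 0.51 ± 0.13 but was not called on log2(TPM + 1) (0.25). Nfkbid fell by 1.05 ± 0.34 (named after its values were seen), a call lost without tuNK 4 (edgeR adjusted p = 0.0533). These genes are also expressed by mesenchymal cells, whose markers rose in the same libraries, and the part of those cells was not tested.

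**Figure D4:**
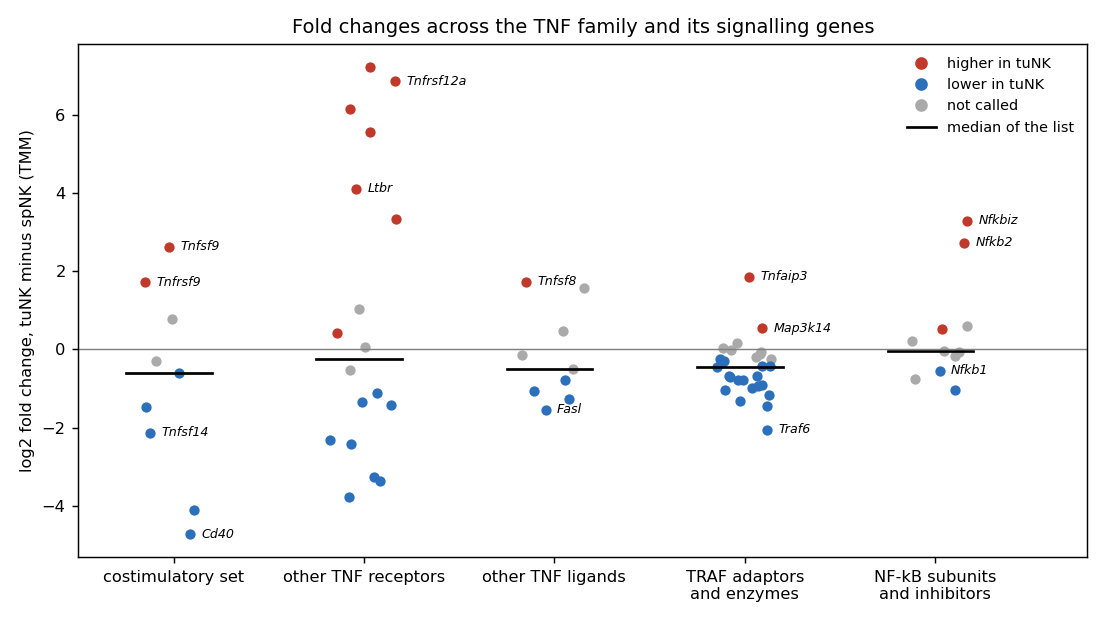
Log2 fold change, tuNK minus spNK under TMM scaling, of each tested gene of the costimulatory set (9), the other TNF receptors (18), the other TNF ligands (9), the TRAF adaptors and enzymes (27) and the NF-kB genes (11), coloured by the edgeR call, with the list median as a line. The other receptors spread widest, Tnfrsf9 and Tnfsf9 are the 2 red points of the costimulatory set, and of the 18 lower genes of the adaptor list Traf6 alone was called lower when leukocyte-scaled.

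Across the 8 libraries, the genes most like Cd40 by Pearson's r of log2 CPM were Akap13 (0.9917), Cbx1 (0.9881) and Atp1b2 (0.9873), and those most like Tnfsf9 were Shisa4 (0.9985), Mapk11 (0.9957) and a row named Fmn1 (0.9954). As the groups differ in most genes, such values are common, with 1523 other genes above 0.95 for Tnfsf9 and 291 for Cd40. They are given as a description of these 8 libraries, which share the split into 2 groups.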

How the data were processed

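NK cells were sorted from digested tumours and spleens, and polyadenylated RNA was sequenced from 4 tuNK and 4 spNK libraries. The submitters' processing notes name FastQC 0.11.9, STAR and Salmon with GRCm38 (mm10). For STAR and Salmon no version was found, and neither was an annotation or a strand setting (not given in the sources used here). Raw estimated counts were deposited by the authors without normalisation, with 7.9 to 8.82% of values in a library not whole. TPM were deposited by the authors too, a unit that is by definition scaled to transcript length and to a fixed total. Both tables hold 45706 genes. Positions come from GENCODE M21, and promoter windows from RefSeq.

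Counts were rounded, filtered with filterByExpr (14006 genes left) and scaled with TMM. Groups were compared with the edgeR 4.0.16 quasi-likelihood F test (robust), with Benjamini-Hochberg adjustment over all genes and a threshold of 0.05. The method was tested on simulated counts in which few genes changed, equally often in each direction. That test does not cover groups that differ in most genes, as these do. Libraries of a group varied with a common dispersion of 0.071 (coefficient 0.266). Leukocyte scaling used the mean log count, plus 0.5, of the 33 rows that carry the names of the 32 genes. Alternatives used DESeq2 1.42.0 and limma 3.58.1. A floor of 3 counts covers counting error only.

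The members and lists were chosen with earlier results of these data known. The rule for naming took all 10 genes, their partners, 4 genes of smallest p per further list, the 3 genes most like 1 receptor and 1 ligand, and genes annotated within member clusters. Tnfrsf27 had no row in the tables. No set test was run.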

Additional observations from a re-analysis of the deposited data

Results flagged for a closer look

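Tnfrsf9 was at 259 CPM in tuNK 4, against 129 to 151 CPM in the other tuNK libraries. The library was picked out because its gap to the nearest other library was 0.831 of the range of the group, above the limit of 0.829 that Dixon's test sets for 4 samples. Chance alone picks out about 1 group in 20 by this test. The same library held the most Tnfsf4 RNA (2.83 CPM), an NK marker sum of 5827 CPM among tuNK values of 4290 to 6056 CPM, and a mesenchymal marker sum of 3375 CPM among values of 3089 to 4753 CPM. Without it Tnfrsf9 was still called higher in tuNK (log2 fold change 1.42).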

How the results depend on the processing

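With leukocyte scaling 10806 genes were called higher and 870 lower in tuNK, in place of 4983 and 4761, and of the 10 genes 5 were higher and 3 lower, in place of 2 and 5. Under the other 19 alternatives these counts stayed within 1.5 times. By library size alone all genes had a median of -0.15, and on log2 TPM with offsets of 1 and 0.1 medians of -0.14 and -0.20. Leukocyte scaling raised the log2 fold change of each of the 14006 genes, and among the genes recomputed under every alternative those that turned positive were Tnfrsf18 (1.35), Tnfrsf1b (1.09), Cd27 (0.16), Tnfrsf14 (0.51), Tnf (1.18), Lta (1.56), Relt (0.32), Ltb (0.39), Fasl (0.13), Tnfsf12 (0.64), Tnfsf10 (0.88), Birc2 (0.21), Tab2 (0.50), Otulin (0.67), Nfkb1 (1.11), Nfkbid (0.67), Cd160 (0.16), Akap13 (0.57) and Cbx1 (1.38). Lta also turned positive with limma-voom (0.0902), with the replicate block (0.0352) and when libraries were left out in turn (-0.47 to 0.33). The cause was not tested. Under the 20 alternatives to TMM Cd27 lost its call and Tnfrsf1b changed direction with leukocyte scaling, the other 5 called genes kept theirs, and Tnfrsf18 was called lower under 7 of them.

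The libraries share replicate numbers without a stated link. Same-numbered libraries had correlations of -0.008 to 0.042 in their deviations, and libraries of unlike number -0.064 to 0.035. The tuNK 2, tuNK 3 and tuNK 4 libraries correlated best with their own number (0.042, 0.031 and 0.022). For tuNK 1 the best match was spNK 3 (0.024, against -0.008 with its own number). With the replicate block 4926 genes were higher and 4629 lower, and the members' counts were 2 and 5. Depth limited Cd70, Tnfrsf4 and Cd40, with 0 to 22, 0 to 138 and 0 to 299 counts per library.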
